A study of Mus musculus with 16 samples.

Results

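The RNA levels of 40 genes that encode the mTOR complexes and their regulators were followed in leukemic mouse cells with and without the mediator kinase CDK8, and with and without an inhibitor of CDK8 and its close relative CDK19. The genes were fixed by name, as the subunits of mTORC1 and mTORC2, the TSC complex and Rheb, the Rag GTPases and their regulators, nutrient sensors, and substrates, and each of the 40 matched 1 of the 50686 gene models counted. The list was chosen with earlier results of these data known. All cells were C57BL/6N bone marrow cells transformed with BCR-ABL1p185, the oncogenic kinase of Philadelphia chromosome-positive acute lymphoblastic leukemia, carried on a retroviral vector together with eGFP. The 4 control lines, labelled wildtype, are described in the study as Cdk8fl/fl, with both alleles floxed, and the 4 deleted lines, labelled Cdk8 KO, as Cdk8Δ/Δ Vav-Cre, in which Cre under the Vav promoter removes the floxed part in blood cells. Each line gave 1 library from cells kept for 48 h in DMSO (0.01%) and 1 from cells kept for 48 h in 1 µM Senexin B, which makes 16 libraries in 4 groups of 4. The lines were derived individually, so the p-values of the genotype comparisons measure the spread between lines. The 2 libraries of a line are not independent. Tests of Senexin B without pairing treat them as if they were, and fits with the line as a block measure the spread of the change within lines.

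mTOR is a serine/threonine kinase that works in 2 complexes. mTORC1 is activated at the lysosome, where Rag GTPases recruit it when amino acids are present and Rheb switches it on when growth factor signals have inactivated the TSC complex, and it then promotes translation and holds back autophagy. mTORC2 responds to growth factors and phosphorylates AKT and SGK kinases. In BCR-ABL1-positive lymphoblasts the PI3K-AKT-mTOR pathway is active downstream of the oncogenic kinase, and its kinases have been studied as drug targets. The counts below are RNA: phosphorylation, protein and kinase activity were not measured by them.

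Total counts on genes ranged from 13145876 to 18349425 per library, with a median of 15473664, and 6.58% to 12.3% of them fell on mitochondrial genes. The 9 pro-B cell markers read (among them Pax5 and Ebf1) all had counts in every library, with a summed level of 4504 to 8197 TPM (counts per exon length, scaled to a library total of 1000000). The 5 T cell markers summed to at most 0.460 TPM, with Cd3g at 0 in all 16 libraries. The 6 myeloid markers summed to 0.544 to 18.0 TPM in Cdk8fl/fl libraries and to 1.08 to 56.1 TPM in Cdk8Δ/Δ libraries, nearly all of it Lyz2, with Elane at 0 in all 16. The 4 erythroid markers ranged from 15.3 to 887 TPM in Cdk8fl/fl and from 14.2 to 1078 TPM in Cdk8Δ/Δ libraries, nearly all of it the globin Hbb-bt, while Hba-a1 was at 0 in 15 of 16. The 4 stromal and endothelial markers ranged from 21.6 to 196 TPM and from 47.9 to 219 TPM, nearly all of it Pecam1, with Col1a2 at 0 in 15 of 16. The part of these transcripts in the results was not tested, and in bulk RNA fewer cells of a type and less RNA per cell cannot be told apart. Exon reads of Cdk8, which include exons outside the deleted part, were 68.7, 61.8, 63.3 and 65.8 CPM (counts scaled to a library total of 1000000) in Cdk8fl/fl lines 1 to 4 with DMSO and 35.3, 52.1, 47.1 and 42.8 CPM in Cdk8Δ/Δ lines. With Senexin B they were 89.4, 56.3, 56.8 and 55.2 CPM in Cdk8fl/fl and 43.9, 61.7, 42.9 and 41.2 CPM in Cdk8Δ/Δ. Cdk8 was thus lower in every Cdk8Δ/Δ library than in every Cdk8fl/fl library with DMSO, while with Senexin B the genotypes overlapped, and these gene totals do not measure the deleted exons alone. The gene table of the Cdk8fl/fl DMSO library of line 1 names another folder for its annotation than the other 15 tables, and values without this library are given for the results that it moved most.

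The RNA of the kinase itself was abundant. Mtor averaged 269 ± 79.3 TPM (SD, n = 16 libraries), and among the members only the translation factor Eif4b (463 ± 86.7 TPM) and the translation repressor Eif4ebp2 (329 ± 93.9 TPM) averaged more. The scaffold Eif4g1 followed at 249 ± 49.6 TPM. The ranges of neighbours in this order overlapped, but all 4 genes averaged at least 249 TPM, against 108 TPM for the next gene, the Ragulator subunit Lamtor5, and only Mtor, with a lowest library of 139 TPM, reached into the range of Lamtor5 (72.9 to 143 TPM). The proteins that make up each complex were not encoded by equally abundant RNAs. Of the mTORC1 partners, the inhibitory subunit Akt1s1 (PRAS40) averaged 37.7 TPM, the substrate-binding subunit Rptor 19.8 TPM, Mlst8, which stabilizes the kinase domain in both complexes, 17.7 TPM, and the inhibitor Deptor only 2.84 TPM. Of the mTORC2 partners, Prr5 (Protor-1) averaged 48.4 TPM, Mapkap1 (SIN1) 40.3 TPM and the scaffold Rictor 30.4 TPM, while Prr5l (Protor-2) averaged 0.200 TPM with at most 29 counts in a library.

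Upstream of the kinase, Tsc2, the GTPase-activating subunit of the TSC complex, averaged 52.9 TPM, its partner Tbc1d7 47.2 TPM, its scaffold Tsc1 11.8 TPM and its target, the GTPase Rheb, 27.2 TPM. At the lysosome, the GTPases Rragc and Rraga averaged 105 and 87.3 TPM. The 5 subunits of Ragulator, the complex that anchors the Rag GTPases to the lysosome, spread from 18.8 TPM for Lamtor3 through 28.5 TPM for Lamtor1, 73.8 TPM for Lamtor2 and 74.9 TPM for Lamtor4 to 108 TPM for Lamtor5. The arginine sensor Slc38a9 stood at 8.83 TPM. Of GATOR1, the complex that turns off RagA, Nprl2 averaged 40.1 TPM, Depdc5 14.7 TPM and Nprl3 13.4 TPM. Flcn, which with Fnip1 or Fnip2 acts on RagC and RagD, averaged 31.4 TPM, Fnip1 12.6 TPM and Fnip2 0.122 TPM, again with at most 29 counts in a library. The stress-induced sestrins, which restrain mTORC1, averaged 34.7 TPM for Sesn1 and 15.5 TPM for Sesn3. Because Prr5l and Fnip2 fell under the filter on low counts, 38 of the 40 members were tested in each comparison.

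**Figure D1:**
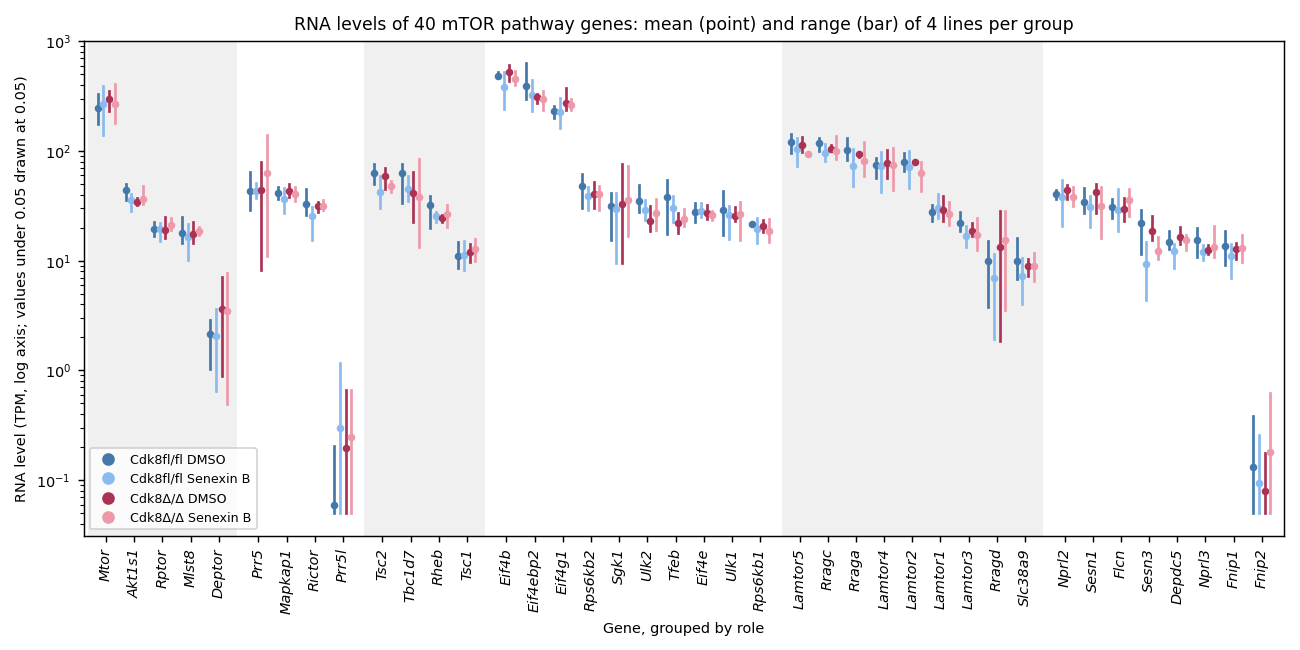
RNA level of each of the 40 genes in TPM on a log axis, grouped by role, with the mean (point) and the lowest to highest value (bar) of 4 lines in each of the 4 groups. Eif4b, Eif4ebp2, Mtor and Eif4g1 average 249 TPM or more, Prr5l and Fnip2 average 0.200 and 0.122 TPM, and the bars of Deptor, Prr5, Rragd and Sgk1 are among the longest of the tested genes.

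Several of these genes carry the E-box CACGTG near their start, the core of the site that TFEB, itself a member of the list, shares with MYC. In RefSeq promoters of build GRCm38.p6 (250 bases before to 50 bases after each start), found for 37 of the 40 members, the letters CACGTG, which read the same on both strands, occurred in 9 members (24.3%): Eif4e, Eif4g1, Fnip1, Lamtor1, Lamtor4, Rheb, Rragc, Sgk1 and Tbc1d7. The same letters occurred in 8.09% of all 27025 genes with a promoter. Counted by promoter, they occurred in 9 of the 50 promoters of the members, against 7.15% of all 32851 promoters. Windows around the E-box are shown for the Rag and Ragulator genes and Rheb, which place and activate mTORC1 at the lysosome, with the E-box in capitals, written 5′ to 3′ on the strand of the gene.
Rragc, chr4:123917309-123917338, plus strand: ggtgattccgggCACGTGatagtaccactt
Lamtor1, chr7:101905757-101905786, plus strand: ctgccttcctatCACGTGccgcgggtccgc
Lamtor4, chr5:138255350-138255379, plus strand: gcagaaagttaaCACGTGaacagcttttca
Lamtor4, chr5:138255366-138255395, plus strand: tgaacagcttttCACGTGtaaaccaaacca
Rheb, chr5:24842440-24842469, minus strand: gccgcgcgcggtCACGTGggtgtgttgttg

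The 2 windows of Lamtor4 overlap, so that they hold 2 E-boxes side by side. The letters GTAAACA, a core that FOXO factors bind, searched on both strands, occurred in Mapkap1 and Sesn1 (5.41% of the 37 members, against 4.05% of all genes with a promoter). Neither CACGTG nor GTAAACA was found in the window of Sesn3, the gene with the most distinct response to Senexin B below, which says only that these letters are not in that window. A match is a description of the letters and was not tied to binding. The 250 bases before the RefSeq start of Sesn3, which lies inside the longer gene model that was counted, are shown for reference, in lower case throughout because no motif is marked.
Sesn3, chr9:14276051-14276300, plus strand: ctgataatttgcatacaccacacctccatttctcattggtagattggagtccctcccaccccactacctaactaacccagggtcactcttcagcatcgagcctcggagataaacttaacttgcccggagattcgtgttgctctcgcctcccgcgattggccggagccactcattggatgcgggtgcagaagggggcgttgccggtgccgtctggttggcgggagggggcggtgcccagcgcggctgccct

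What Senexin B did to the pathway was asked within each genotype, because the 2 libraries of a line can be compared directly. Sesn3 (chr9:14275067-14333101, plus strand, GRCm38), which encodes a sestrin that restrains mTORC1 through GATOR2, was lower with the inhibitor in all 8 lines. In the Cdk8fl/fl lines its RNA went from 59.8, 147, 116 and 118 CPM with DMSO (lines 1 to 4) to 24.3, 44.9, 55.7 and 83.1 CPM with Senexin B. In the Cdk8Δ/Δ lines it went from 131, 79.9, 93.0 and 80.3 CPM to 80.6, 55.3, 58.0 and 64.2 CPM. Only line 1 of Cdk8fl/fl with DMSO reached into the range of the treated Cdk8fl/fl libraries, and the treated library of that line was the lowest of all 16; in Cdk8Δ/Δ the treated line 1 just exceeded the untreated lines 2 and 4. Within a line, Sesn3 with Senexin B stood at 40.6, 30.6, 48.0 and 70.6% of its DMSO value in Cdk8fl/fl and at 61.4, 69.2, 62.4 and 80.0% in Cdk8Δ/Δ.

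The share of counts on mitochondrial genes was also higher with Senexin B in all 4 Cdk8fl/fl lines, going from 7.92, 6.58, 6.75 and 8.01% to 10.4, 10.1, 7.21 and 9.01% in lines 1 to 4. In Cdk8Δ/Δ it went from 8.86, 8.37, 8.81 and 7.30% to 8.32, 12.3, 7.42 and 7.79% and was higher in lines 2 and 4 and lower in lines 1 and 3. The part of this share in the changes of Sesn3 was not tested.

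Exact permutation tests of 4 against 4 libraries were two-sided, on log2(CPM + 1). A change was called at an adjusted p under 0.05 (Benjamini-Hochberg over all genes tested) together with a fold change over 2. These are the limits in the study's Methods, which applied them with DESeq2 rather than edgeR. The study's heatmap of differing genes states a looser FDR under 0.1. By edgeR's quasi-likelihood test without pairing, Sesn3 did not pass in Cdk8fl/fl (edgeR log2 fold change -1.07, SE 0.39, adjusted p = 1.00, and p = 0.0571 in an exact permutation test) or in Cdk8Δ/Δ (edgeR log2 fold change -0.57, SE 0.20, adjusted p = 1.00, and p = 0.0857 in an exact permutation test). The 2 libraries of a line deviate from their group means together, and with the line as a block in edgeR the values were -1.13 (adjusted p = 0.0725) and -0.56 (adjusted p = 0.152). In the blocked edgeR fit of Cdk8fl/fl it passed both limits when line 1 was left out (-1.09, adjusted p = 0.0162) or line 4 was left out (-1.36, adjusted p = 0.0453), and not without line 2 (adjusted p = 0.468) or line 3 (adjusted p = 0.255). Without a block, its log2 fold change in Cdk8fl/fl was -1.28 (edgeR adjusted p = 0.836) when the DMSO library of line 1 was left out. Its unadjusted p in edgeR no longer lay under 0.05 when either library of Cdk8fl/fl line 2 was left out (log2 fold change -0.91 without its DMSO library and -1.01 without its Senexin B library), and in Cdk8Δ/Δ when the Senexin B library of line 2 (-0.51) or line 3 (-0.53) was left out.

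A fit of all 16 libraries with the 8 lines as blocks and 1 common Senexin B effect was added after the data had been seen. It takes the changes of the 8 lines as independent of each other. This may not hold, since lines of the same number changed alike in many members (values at the end). In this edgeR fit Sesn3 had a log2 fold change of -0.85 (SE 0.14, adjusted p = 0.0102), which passed the limit on adjusted p but not the limit of 2-fold. Leaving out each line in turn kept the adjusted p between 0.0151 and 0.0391. Sesn3 was 1 of the 2 members lower in all 8 lines, where 2.59% of the 14164 genes tested were lower in all 8. No member was higher in all 8 lines, where 1.96% of all genes were. In the DMSO libraries Sesn3 did not differ between genotypes beyond its spread (edgeR log2 fold change -0.19, SE 0.28, adjusted p = 0.947, and p = 0.657 in an exact permutation test). Whether its response differed between genotypes was tested by the interaction, which gave 0.51 on the log2 scale (95% confidence interval -0.48 to 1.49, edgeR adjusted p = 1.00), with the line as a block 0.58 (adjusted p = 0.991).

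Tsc2 (chr17:24595937-24632629, minus strand) was the other member lower in all 8 lines. It stood at 103, 151, 139 and 108 CPM with DMSO and 65.1, 97.2, 114 and 92.3 CPM with Senexin B in Cdk8fl/fl. In Cdk8Δ/Δ it stood at 143, 120.4, 122 and 92.2 CPM with DMSO and 102, 91.4, 109 and 91.8 CPM with Senexin B. Line 4 of Cdk8Δ/Δ hardly moved, and the treated and untreated libraries overlapped in both genotypes. Tsc2 did not pass in Cdk8fl/fl (edgeR log2 fold change -0.43, SE 0.21, adjusted p = 1.00, and p = 0.114 in an exact permutation test) or in Cdk8Δ/Δ (edgeR log2 fold change -0.27, SE 0.14, adjusted p = 1.00, and p = 0.114 in an exact permutation test). Over the 8 lines its log2 fold change was -0.35 (SE 0.09, edgeR adjusted p = 0.0530), just above the limit of 0.05, with an adjusted p of 0.0106 by DESeq2, 0.0384 by edgeR without the filter on low counts and 0.0489 by edgeR without Cdk8Δ/Δ line 4, and up to 0.129 without another line. Of the exon bases of Tsc2, 9.61% overlap exons of Pkd1 on the other strand, and the counting was run without a strand option. Its partner Tsc1 differed by 0.17 in Cdk8fl/fl and 0.13 in Cdk8Δ/Δ, and its target Rheb by -0.17 and 0.17, none of which passed.

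**Figure D2:**
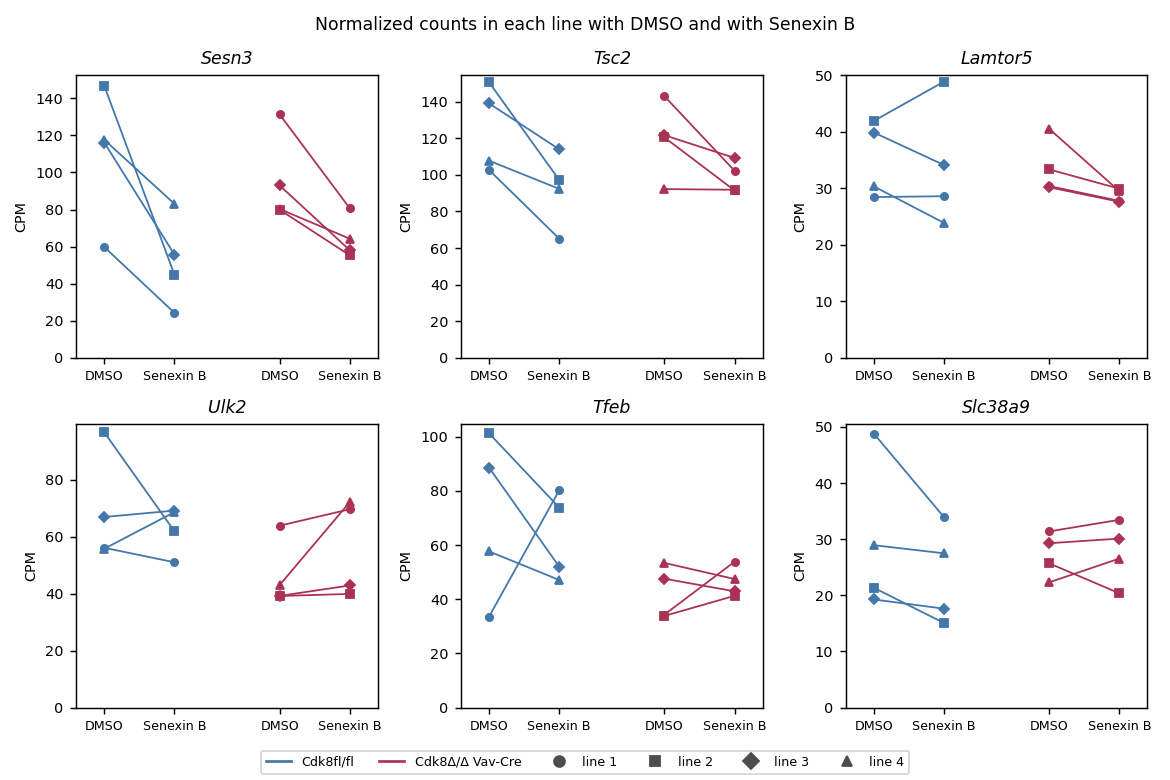
CPM (TMM-normalized over 16 libraries) of 6 genes in each line with DMSO and with Senexin B, joined by a line, with the genotype by colour and the line number by symbol. Sesn3 and Tsc2 go down in all 8 lines, Lamtor5 goes down in all 4 Cdk8Δ/Δ lines and in 2 of 4 Cdk8fl/fl lines, and Ulk2, Tfeb and Slc38a9 differ in direction between lines.

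Among the 38 members tested, 0 passed both limits with Senexin B in Cdk8fl/fl, where 0% of all 12989 genes tested passed, and 0 in Cdk8Δ/Δ, where 0% of 13285 passed. With an unadjusted p under 0.05, edgeR gave 1 member (Sesn3) in Cdk8fl/fl against 3.8% of all genes and 1 member (Sesn3) in Cdk8Δ/Δ against 1.83%, and DESeq2 also gave 1 and 1, with 0 past both limits. With the line as a block in edgeR these counts became 2 members in Cdk8fl/fl (Sesn3 and Tsc2, both lower, against 10.3% of all genes) and 5 in Cdk8Δ/Δ (Rptor and Flcn higher, Sesn3, Tsc2 and Lamtor2 lower, against 10.3%), none of them with an adjusted p under 0.05, and 0.346% and 0.0527% of all genes passed both limits. In the blocked Cdk8fl/fl fit without line 1, 10 members had an unadjusted p under 0.05, against 22.0% of all genes, and 2 had an adjusted p under 0.05 (Sesn3, and Rraga at -0.63 with an adjusted p of 0.0427), against 7.82%. Over the 8 lines, 7 members had an unadjusted p under 0.05 in edgeR (5 lower, 2 higher) against 16.4% of all genes, and 1 of 38 had an adjusted p under 0.05 against 2.63%. DESeq2 with the same blocks gave 6 and 2 members. Past both limits there were 0 members in either tool, against 0.946% of all genes in edgeR. The number of 7 became 2 without Cdk8fl/fl line 4 or Cdk8Δ/Δ line 3, 3 without Cdk8Δ/Δ line 4, and 4 without Cdk8fl/fl line 3 or Cdk8Δ/Δ line 2.

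None of the core subunits passed the test. Mtor stood at 984, 1113, 566 and 638 CPM with DMSO and 508, 1246, 811 and 1465 CPM with Senexin B in Cdk8fl/fl. In Cdk8Δ/Δ it stood at 1211, 952, 822 and 1036 CPM with DMSO and 581, 731, 965 and 1511 CPM with Senexin B. The lines moved in opposite directions, up in 3 Cdk8fl/fl lines and down in line 1, and in Cdk8Δ/Δ down in lines 1 and 2 and up in lines 3 and 4. Within lines 1 to 4, Mtor with Senexin B stood at 51.6, 112, 143 and 230% of its DMSO value in Cdk8fl/fl. In Cdk8Δ/Δ it stood at 48.0, 76.8, 117 and 146%, so the change rose with the line number in both genotypes. The 95% interval of the difference ran from -0.50 to 1.10 on the log2 scale in Cdk8fl/fl and from -0.76 to 0.59 in Cdk8Δ/Δ. Rptor stood at 102, 87.4, 82.0 and 75.6 CPM with DMSO and 107, 86.5, 84.6 and 107 CPM with Senexin B in Cdk8fl/fl. It was higher with Senexin B in every Cdk8Δ/Δ line, at 74.4, 108, 75.7 and 85.2 CPM with DMSO and 81.2, 116, 94.5 and 107 CPM with Senexin B. Over the 8 lines Rptor was higher by 0.19 (edgeR adjusted p = 0.249), which did not pass.

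Rictor, which defines mTORC2, stood at 141, 93.0, 77.7 and 91.6 CPM with DMSO and 103, 61.4, 89.2 and 93.1 CPM with Senexin B in Cdk8fl/fl. In Cdk8Δ/Δ it stood at 88.0, 101, 99.4 and 108 CPM with DMSO and 85.6, 116, 110.3 and 98.4 CPM with Senexin B. Only Cdk8fl/fl line 1 with DMSO lay well above the other lines. Mlst8, with 29.6% of its exon bases under exons of Bricd5 on the other strand, stood at 18.8, 16.2, 16.3 and 28.2 CPM with DMSO and 23.1, 14.6, 16.1 and 27.2 CPM with Senexin B in Cdk8fl/fl. In Cdk8Δ/Δ it stood at 16.7, 18.9, 18.7 and 26.0 CPM with DMSO and 20.7, 20.6, 20.9 and 25.0 CPM with Senexin B, and line 4 was the highest of its group in all 4 groups.

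At the lysosome, Lamtor5 was the single member whose treated and untreated libraries did not overlap, in Cdk8Δ/Δ, as was the case for 1.66% of all genes. It stood at 30.4, 33.3, 30.2 and 40.5 CPM with DMSO and 27.8, 29.9, 27.6 and 29.5 CPM with Senexin B, so that all 4 treated lines lay just under the lowest untreated line (edgeR log2 fold change -0.23, SE 0.13, adjusted p = 1.00, and p = 0.0286 in an exact permutation test). In Cdk8fl/fl it stood at 28.4, 41.9, 39.9 and 30.3 CPM with DMSO and 28.6, 48.9, 34.1 and 23.9 CPM with Senexin B, with 2 lines up and 2 down. In Cdk8fl/fl, no member's libraries were separated, against 2.16% of all genes. Counted by line, 1 member was higher with Senexin B in all 4 Cdk8fl/fl lines (Eif4e, the cap-binding protein, against 8.38% of all genes) and 3 were lower in all 4 (Tsc2, Slc38a9 and Sesn3, against 9.46%). In Cdk8Δ/Δ, 3 were higher in all 4 lines (Rptor, Ulk2 and Flcn, against 8.89%) and 4 were lower in all 4 (Tsc2, Eif4b, Lamtor5 and Sesn3, against 10.3%). These counts lie near or under the share among all genes.

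The precision of these fits bounds what could have been missed. In the fits without a block, the 95% confidence interval of the difference lay within 2-fold in either direction for 32 of 38 members with Senexin B in Cdk8fl/fl and for 31 of 38 in Cdk8Δ/Δ. The intervals that reached past 2-fold belonged to Deptor, Sgk1, Rragd and Sesn3 in both genotypes, to Mtor and Slc38a9 in Cdk8fl/fl, and to Prr5, Tbc1d7 and Sesn1 in Cdk8Δ/Δ. The median log2 fold change of the 38 members was -0.08 in Cdk8fl/fl and -0.02 in Cdk8Δ/Δ, beside 0.02 and 0.01 over all genes tested.

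**Figure D3:**
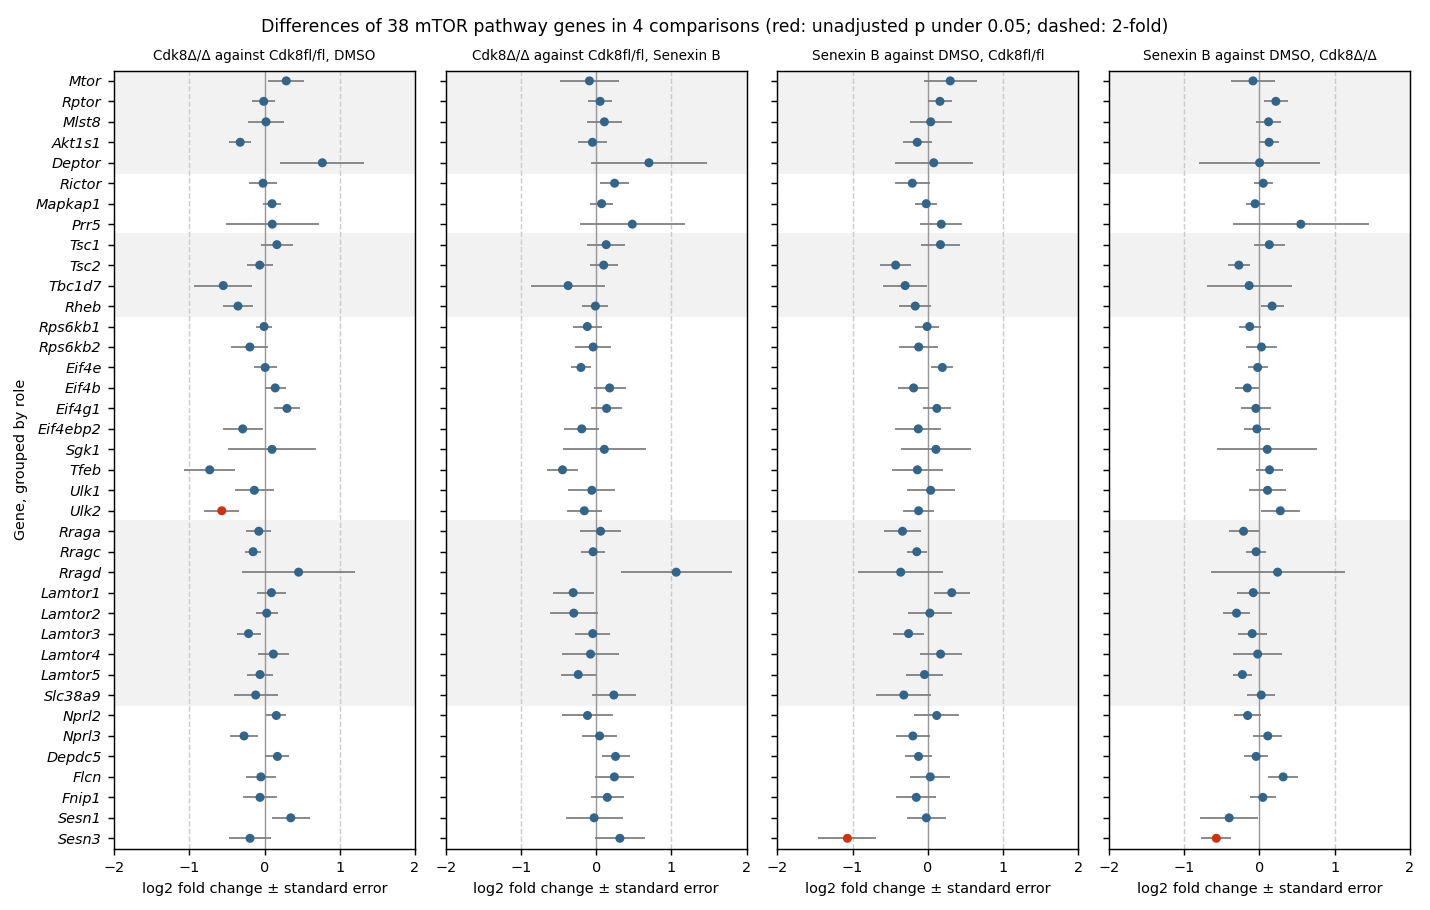
Log2 fold change with its standard error for the 38 tested genes in 4 comparisons, grouped by role, from edgeR with 4 libraries a group. The red points have an unadjusted p under 0.05 (Ulk2 between genotypes in DMSO, Sesn3 with Senexin B in both genotypes), none passed the limit on adjusted p, and the bars of Deptor, Prr5, Sgk1 and Rragd are long in most comparisons.

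The loss of Cdk8 was examined in the DMSO libraries. No member passed both limits, against 0.00759% of all 13174 genes tested (1 gene), and edgeR gave 1 member with an unadjusted p under 0.05, against 5.32% of all genes, while DESeq2 gave 3 members with an unadjusted p under 0.05 and 0 past both limits. This member was Ulk2 (chr11:61775649-61855073, minus strand), which encodes a kinase that starts autophagy and is inhibited by mTORC1. Ulk2 stood at 56.1, 96.6, 66.9 and 55.7 CPM in Cdk8fl/fl and 63.8, 39.2, 39.2 and 43.0 CPM in Cdk8Δ/Δ. Lines 2 to 4 of Cdk8Δ/Δ lay under every Cdk8fl/fl line, and line 1 lay among them (edgeR log2 fold change -0.57, SE 0.23, adjusted p = 0.897, and p = 0.0857 in an exact permutation test). Its unadjusted p no longer lay under 0.05 without the DMSO library of Cdk8fl/fl line 2 or 3 or of Cdk8Δ/Δ line 2, 3 or 4, and ranged from 0.00873 to 0.110 over all alternatives. Its paralog Ulk1 stood at 52.4, 93.0, 63.8 and 37.2 CPM in Cdk8fl/fl and 68.3, 47.7, 52.2 and 55.6 CPM in Cdk8Δ/Δ, with overlapping groups.

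Leaving out the DMSO library of Cdk8fl/fl line 1 moved this comparison most. Without it, 6 members had an unadjusted p under 0.05 in edgeR, 5 lower in Cdk8Δ/Δ (Rheb -0.52, Tfeb -0.96, Akt1s1 -0.40, Nprl3 -0.41 and Ulk2 -0.66 on the log2 scale) and 1 higher (Depdc5, 0.31), with adjusted p from 0.377 to 0.469. The share of all genes with an unadjusted p under 0.05 was then 10.6%. Tfeb, the transcription factor for lysosomal genes that mTORC1 keeps in the cytoplasm, stood at 33.6, 101, 88.6 and 57.6 CPM in Cdk8fl/fl and 34.3, 33.8, 47.6 and 53.4 CPM in Cdk8Δ/Δ with DMSO. Line 1 of Cdk8fl/fl lay with the deleted lines and the other 3 above all of them (edgeR log2 fold change -0.73, SE 0.34, adjusted p = 0.897, and p = 0.171 in an exact permutation test).

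With Senexin B in both genotypes, 0 of 38 members passed both limits (against 0% of 13010 genes) and 0 had an unadjusted p under 0.05 in edgeR (against 1.55%), with 0 and 0 by DESeq2. Removing the treated library of Cdk8fl/fl line 1 brought in Flcn, of Cdk8fl/fl line 3 or 4 Tfeb, and of Cdk8Δ/Δ line 1 Tbc1d7, each as 1 member with an unadjusted p under 0.05 and an adjusted p of at least 0.993. Treated Tfeb stood at 80.2, 73.8, 52.0 and 47.1 CPM in Cdk8fl/fl and 53.9, 41.3, 42.9 and 47.4 CPM in Cdk8Δ/Δ, with a difference of -0.45 (SE 0.21), and Ulk2 at 51.0, 61.9, 69.1 and 68.6 CPM in Cdk8fl/fl and 69.6, 39.9, 42.9 and 72.1 CPM in Cdk8Δ/Δ. No member's libraries were separated between genotypes, in DMSO (against 3.14% of all genes) or with Senexin B (against 0.999%). The 95% interval lay within 2-fold for 31 of 38 members in DMSO and 31 of 38 with Senexin B. It reached past 2-fold for Deptor, Prr5, Tbc1d7, Sgk1 and Rragd in both, for Tfeb and Ulk2 in DMSO and for Lamtor2 and Sesn3 with Senexin B. The 2 genotype comparisons rest on the same 8 lines, and each shares libraries with the comparisons of Senexin B above.

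The interaction asked whether Senexin B acted differently in the 2 genotypes. In edgeR 0 members passed both limits (against 0% of 14164 genes) and 0 had an unadjusted p under 0.05 (against 0.473%), again with 0 and 0 by DESeq2, and with the line as a block 2 members had an unadjusted p under 0.05 (Sesn3, and Rragd at 0.69 with an adjusted p of 0.991, against 3.24%). Without a block and without the DMSO library of Cdk8fl/fl line 1 there was 1, Rheb at 0.51 (adjusted p = 1.00), against 1.43% of all genes. Without a block the interval lay within 2-fold for only 22 of 38 members. For the other 16, Sesn3 among them, that fit could not tell a 2-fold difference in response from none. With the line as a block, Sesn3 was at 0.58 (SE 0.24, edgeR unadjusted p = 0.0323, adjusted p = 0.991).

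For several members, lines of a group differed more than treated and untreated libraries of a line. Of the variation of log2 CPM within a group, the share that ran between lines (the same line high or low with and without Senexin B) was 96.9% for Prr5, 96.8% for Rragd, 95.8% for Deptor and 94.9% for Sgk1, against a median of 76.5% over the 38 members and 78.4% over all 14164 genes tested. It was lowest for Rheb, at 31.7%. Deptor, the inhibitor bound by both complexes, stood at 7.51, 6.48, 8.05 and 3.08 CPM in Cdk8fl/fl and 10.8, 20.3, 8.89 and 2.72 CPM in Cdk8Δ/Δ with DMSO, and at 11.6, 4.50, 8.03 and 2.16 CPM in Cdk8fl/fl and 10.7, 23.9, 6.56 and 1.60 CPM in Cdk8Δ/Δ with Senexin B. Line 2 of Cdk8Δ/Δ held the most Deptor in both conditions and line 4 of each genotype the least of its group. Rragd, which encodes the partner of RagA or RagB that can replace RagC, stood at 6.71, 25.7, 23.8 and 11.1 CPM in Cdk8fl/fl and 30.1, 46.9, 11.6 and 3.31 CPM in Cdk8Δ/Δ with DMSO. With Senexin B it stood at 3.60, 17.0, 19.3 and 12.0 CPM in Cdk8fl/fl and 40.6, 52.0, 9.35 and 6.76 CPM in Cdk8Δ/Δ. Cdk8Δ/Δ lines 1 and 2 were the highest and line 4 the lowest of that genotype in both conditions.

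Prr5 ran in another order, at 18.9, 40.5, 29.8 and 19.7 CPM in Cdk8fl/fl and 5.37, 17.0, 53.3 and 40.9 CPM in Cdk8Δ/Δ with DMSO. With Senexin B it stood at 29.8, 41.0, 24.9 and 26.6 CPM in Cdk8fl/fl and 6.78, 15.2, 94.1 and 54.6 CPM in Cdk8Δ/Δ, and Cdk8Δ/Δ line 1 held the least in both conditions and line 3 the most. Sgk1, a kinase substrate of mTORC2, stood at 25.4, 63.4, 48.1 and 67.6 CPM in Cdk8fl/fl and 125, 32.5, 45.7 and 16.1 CPM in Cdk8Δ/Δ with DMSO. Its highest values came from line 1 in Cdk8Δ/Δ and its lowest Cdk8fl/fl value also from line 1, with 16.9, 85.0, 54.3 and 62.9 CPM in Cdk8fl/fl and 113, 35.5, 56.8 and 30.0 CPM in Cdk8Δ/Δ after Senexin B. From the lowest to the highest library, CPM spanned 17.5-fold for Prr5, 15.7-fold for Rragd, 14.9-fold for Deptor and 7.79-fold for Sgk1. The tagwise biological coefficient of variation was 75.5% for Rragd, 70.0% for Deptor, 67.6% for Prr5 and 58.9% for Sgk1, against 15.4% for Rragc and 16.3% for Mapkap1, the lowest of the members. With 4 lines a genotype, what belonged to these lines and what to the genotype could not be resolved for these 4 genes: their genotype differences in DMSO had intervals of -0.51 to 2.04 for Deptor, -1.27 to 2.17 for Rragd, -1.32 to 1.52 for Prr5 and -1.25 to 1.45 for Sgk1 on the log2 scale.

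**Figure D4:**
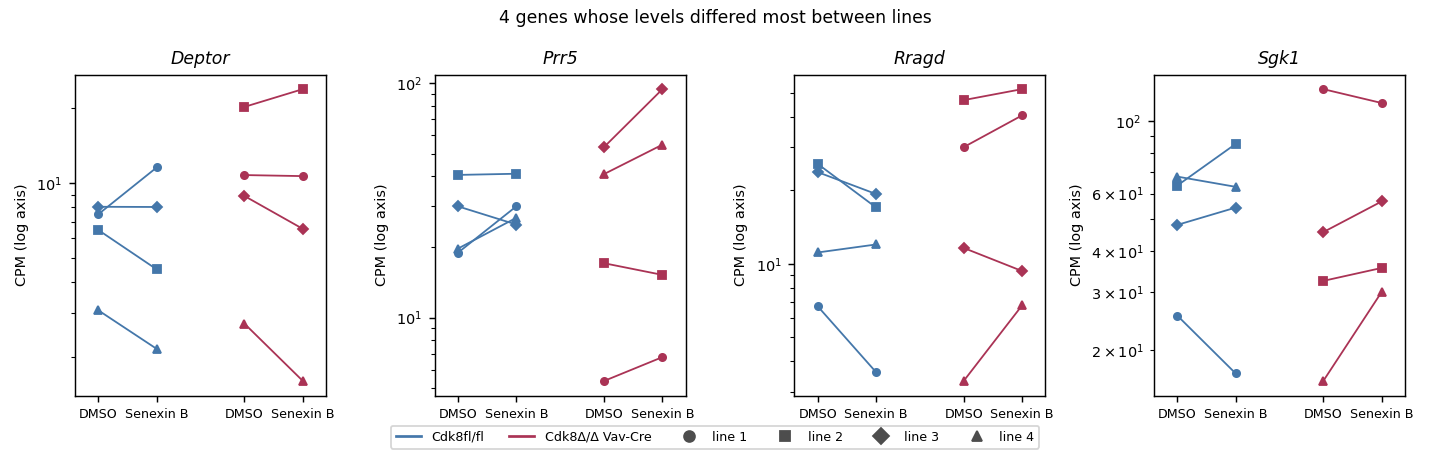
CPM on a log axis of Deptor, Prr5, Rragd and Sgk1 in each of the 8 lines with DMSO and with Senexin B, joined by a line. The joining lines are short against the full distance between lines in each panel, and the symbols show that the order of the lines differs from gene to gene. Not all run flat: lines 1 and 3 of Cdk8fl/fl cross for Prr5, and Rragd in Cdk8Δ/Δ line 4 rises to 204% of its DMSO value.

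The 6 pairs of paralogs in the list could share a function between them, so the share of each in the summed TPM was computed. Prr5 made up a median of 99.9% of Prr5 and Prr5l over the 16 libraries, Fnip1 99.6% of Fnip1 and Fnip2, and Rragc 92.3% of Rragc and Rragd. Sesn1 made up 71.7% of Sesn1 and Sesn3 and exceeded Sesn3 in 15 of 16 libraries. This share leaves out Sesn2, which is not a member. With DMSO, Sesn2 had 49.4, 162, 116 and 118 CPM in Cdk8fl/fl and 46.9, 53.0, 84.7 and 27.7 CPM in Cdk8Δ/Δ. Sesn1 had 62.3, 37.5, 34.8 and 46.6 CPM and 67.5, 35.1, 60.1 and 67.4 CPM, so Sesn1 was not the most abundant sestrin in every line. The order of Sesn1 and Sesn3 depended on exon length, 3982 bases for Sesn1 and 15269 for Sesn3. In CPM with DMSO, Sesn3 averaged 110 against 45.3 for Sesn1 in Cdk8fl/fl and 96.1 against 57.5 in Cdk8Δ/Δ. Of the S6 kinase genes, Rps6kb2 had the higher level per length in all 16 libraries, with Rps6kb1 at 30.2%. In CPM with DMSO, Rps6kb1 averaged more, at 61.5 against 38.5 in Cdk8fl/fl and 61.1 against 33.5 in Cdk8Δ/Δ. Ulk1 and Ulk2 were close to even, with Ulk1 at 46.9% and above Ulk2 in 6 of 16 libraries.

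The Ulk1 share was the one share whose groups did not overlap, between genotypes in DMSO. It was 46.3, 47.0, 46.8 and 38.1% in Cdk8fl/fl and 49.6, 52.9, 55.1 and 54.4% in Cdk8Δ/Δ. Every Cdk8Δ/Δ line lay above every Cdk8fl/fl line, with means of 44.5 ± 4.32% and 53.0 ± 2.42% (SD, n = 4, exact two-sided permutation test p = 0.0286, the smallest that 4 against 4 can give). Adjusted over the 18 tests of 6 pairs in 3 comparisons (genotype in DMSO, and Senexin B in each genotype) the p of this exact permutation test was 0.514, and the other 17 tests gave larger p. The Sesn1 share was 80.0, 49.5, 53.4 and 60.3% in Cdk8fl/fl with DMSO and 82.1, 78.4, 77.3 and 72.2% with Senexin B (exact permutation p = 0.114), with line 1 high in both.

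**Figure D5:**
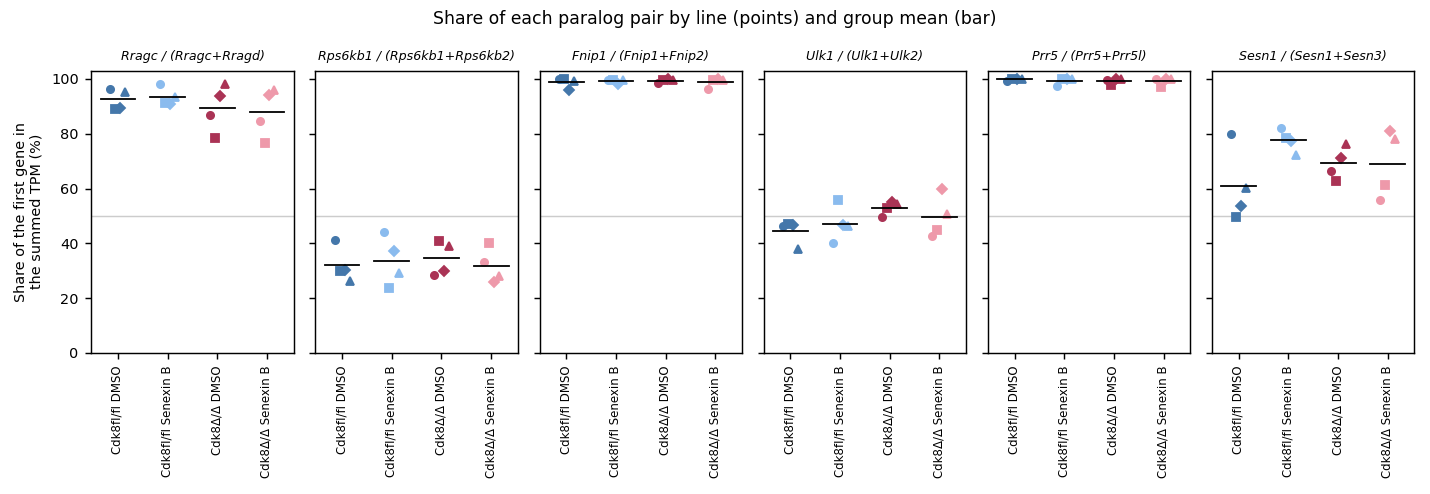
Share of the first gene of each paralog pair in the summed TPM of the pair (%), for each of the 4 lines (points, symbol by line) and as the mean (bar) in the 4 groups. Prr5, Fnip1 and Rragc hold most of their pairs, and Rps6kb1 stays at 44.2% or lower. The Ulk1 points of Cdk8Δ/Δ in DMSO all lie above those of Cdk8fl/fl in DMSO, while with Senexin B the genotypes overlap.

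A further 70 genes of the pathway, listed by role apart from the members, were read from the same fits (17 of nutrient sensing, 14 upstream, 21 downstream and 18 lysosomal genes of the TFEB network). They too were chosen with earlier results of these data known, so their counts beside the shares of all genes do not test the list. In the genotype comparison in DMSO, 0 of 68 tested passed both limits, and 0 were higher and 5 lower in Cdk8Δ/Δ with an unadjusted p under 0.05 in edgeR, against 2.38% and 2.94% of all genes. Ddit4, which encodes REDD1, a stress-induced inhibitor of mTORC1, was the most distinct, at 70.4, 133, 83.0 and 116 CPM in Cdk8fl/fl and 58.9, 59.7, 54.0 and 39.8 CPM in Cdk8Δ/Δ. The groups did not overlap, as was the case for 3.14% of all genes (log2 fold change -0.92, SE 0.23, adjusted p = 0.897 by edgeR). Sesn2, the third sestrin, had 49.4, 162, 116 and 118 CPM in Cdk8fl/fl and 46.9, 53.0, 84.7 and 27.7 CPM in Cdk8Δ/Δ (log2 fold change -1.07, SE 0.42, adjusted p = 0.897 by edgeR), and Slc3a2, the heavy chain of the leucine transporter, had 303, 778, 739 and 913 CPM in Cdk8fl/fl and 415, 364, 481 and 284 CPM in Cdk8Δ/Δ (log2 fold change -0.82, SE 0.32, adjusted p = 0.897 by edgeR). In Sesn2 and Slc3a2 the Cdk8fl/fl line 1 was the lowest of its group and lay among the deleted lines. The remaining 2 were the light chain Slc7a5 and the translation repressor Eif4ebp1, named after their values were seen, with log2 fold changes of -0.98 and -0.73. These counts turned on single DMSO libraries. Without that of Cdk8fl/fl line 1, 8 pathway genes were lower and 1 higher, against 10.6% of all genes in either direction. Without that of Cdk8fl/fl line 2, 3 or 4 there were 1, 3 and 2 lower and 0, 0 and 1 higher (against 3.59, 3.99 and 4.97%). Without that of Cdk8Δ/Δ line 2 or 4 there was 1 lower each, with 1 and 2 higher (against 4.52 and 4.41%).

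With Senexin B in both genotypes, 1 of 68 pathway genes had an unadjusted p under 0.05: Ndrg1, whose protein is phosphorylated by SGK1, at 17.3, 20.3, 7.71 and 11.9 CPM in Cdk8fl/fl and 48.9, 23.5, 26.7 and 17.1 CPM in Cdk8Δ/Δ (log2 fold change 1.03, SE 0.40, adjusted p = 1.00 by edgeR), against 1.55% of all genes. With a treated library left out there were 0 to 3. Senexin B in Cdk8fl/fl gave 2 higher and 6 lower of 68 at an unadjusted p under 0.05, against 1.89% and 1.9% of all genes, and 0 past both limits. With 1 library left out these 8 became 4 to 11. There were 4 without the DMSO library of line 2 or 3 or the treated library of line 3 or 4, and 5 without the DMSO library of line 4. With the line as a block they became 14 (4 higher, 10 lower), against 10.3% of all genes, again with 0 past both limits. In the blocked fit without line 1 they became 28 of 67, against 22.0%, and 6 of the 67 passed both limits, against 4.15% of all genes. Without line 2, 3 or 4 they were 11, 8 and 7 and 0 passed both limits. The 3 with the smallest p are given here. The glutamine transporter Slc1a5 stood at 1033, 914, 1045 and 824 CPM with DMSO and 1232, 1808, 1203 and 1688 CPM with Senexin B. The autophagy receptor Sqstm1 stood at 115, 197, 117 and 219 CPM with DMSO and 71.4, 99.9, 81.8 and 109 CPM with Senexin B. The AMPK subunit Prkaa1 stood at 86.2, 93.9, 103 and 124 CPM with DMSO and 69.3, 58.3, 75.9 and 84.0 CPM with Senexin B. In all 3 the treated and untreated libraries did not overlap, as was the case for 2.16% of all genes (log2 fold change 0.65 for Slc1a5, -0.83 for Sqstm1 and -0.49 for Prkaa1 by edgeR, and an adjusted p of 1.00 for each). All 3 were picked by their small p, so the lack of overlap adds no support of its own. In Cdk8Δ/Δ, 0 of 68 had an unadjusted p under 0.05 in edgeR and 0 of 67 in DESeq2, but with the line as a block 10 of 68 did (5 higher, 5 lower, against 10.3% of all genes), with 0 past both limits. Without a block, leaving out the DMSO or the treated library of Cdk8Δ/Δ line 1 gave 1 and 5. In the interaction 1 of 69 had an unadjusted p under 0.05 (Atg13, a subunit of the ULK complex, 0.49 with SE 0.19, against 0.473% of all genes). There were 4 with the line as a block (against 3.24%), 5 without the DMSO library of Cdk8fl/fl line 1 (against 1.43%), 3 without its treated library (against 2.40%), and 1 or 2 without any other library. DESeq2 likewise gave 0 of these genes past both limits in each of the 5 comparisons. It gave 7 at an unadjusted p under 0.05 in the genotype comparison in DMSO (against 6.90% of all genes), 1 in that with Senexin B (against 2.18%), 9 with Senexin B in Cdk8fl/fl (against 4.62%) and 2 in the interaction (against 0.572%).

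In the fit over 8 lines added after the data had been seen, 7 of 69 pathway genes had an adjusted p under 0.05 in edgeR, against 2.63% of all genes, and 0 passed 2-fold. The fit takes the 8 changes as independent, which may not hold. The gene list was chosen with earlier results of these data known, so this share does not test the list. The 7 became 2 without Cdk8fl/fl line 3, 3 without Cdk8Δ/Δ line 2, 3 or 4, 4 without Cdk8fl/fl line 4, 5 without Cdk8fl/fl line 1 or 2, and 7 without Cdk8Δ/Δ line 1. In these fits 1.09% to 3.01% of all genes had an adjusted p under 0.05. They were named after their values were seen. Lower were Sgk3, a kinase related to SGK1 (-0.48, adjusted p = 0.00933), Grb10, an adaptor and mTORC1 substrate that dampens insulin signalling (-0.83, adjusted p = 0.0143), Pdcd4, a translation inhibitor degraded after S6 kinase phosphorylation (-0.58, adjusted p = 0.0200), Prkaa1 (-0.39, adjusted p = 0.0277) and the lysosomal sialidase Neu1 (-0.55, adjusted p = 0.0429). Also lower was the proton pump subunit Atp6v0d1 (-0.34, adjusted p = 0.0470), and higher was Slc1a5 (0.58, adjusted p = 0.0206). Sgk3 kept an adjusted p under 0.05 in all 8 fits that left out 1 line, Grb10 in 7, Pdcd4 and Slc1a5 in 6, Prkaa1 in 2, and Neu1 and Atp6v0d1 in 1. With an unadjusted p under 0.05 there were 10 lower and 8 higher of 69, and 6 lower and 1 higher of the 18 lysosomal genes, against 16.4% of all genes in either direction.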

How the data were processed

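RNA of 16 libraries (SENSE mRNA-Seq kit, 50 bp single-end reads) was counted by the authors: reads were trimmed with Trimmomatic, aligned with STAR to GRCm38 and assigned to GENCODE M13 genes with featureCounts 1.5.1, so that the deposited values are raw counts per gene. Per the file headers, no option for strand or for reads over several genes was set, so that reads under exons shared by genes on both strands are uncertain. Total counts per library were 13145876 to 18349425. Groups came from the labels.

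Counts were tested with edgeR 4.0.16 (TMM, filterByExpr, robust quasi-likelihood fit, R 4.3.3), each comparison with its own 8 libraries and the interaction with all 16, and p-values were adjusted over all genes tested. A gene was called past both limits, 0.05 for the adjusted p and 2 for the fold change in either direction. CPM were scaled by TMM over all 16 libraries, and TPM used the exon lengths in the files. The log2(CPM + 1) of single genes and the shares of paralogs were compared by exact two-sided permutation tests of the difference in means with SciPy 1.17.1, and the fits were tested on simulated counts. Alternatives were DESeq2 1.42.0, RLE size factors, no filter, a filter of at least 10 counts, 1 fit of all 16 libraries, a replicate block, and leaving out libraries or lines. Replicate numbers paired the 2 libraries of a line: deviations from group means correlated at 0.559 to 0.781 in Cdk8fl/fl and 0.765 to 0.872 in Cdk8Δ/Δ, and 4 of 4 libraries in each matched their own number best. Across genotypes, libraries of the same number correlated at -0.15 to 0.256 with DMSO and at -0.14 to 0.43 with Senexin B. In each case 1 of 4 matched its own number best. The mean for the same number was 0.0097 with DMSO and 0.124 with Senexin B, against -0.0029 and -0.041 for different numbers.

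The members and gene lists were chosen with earlier results of these data known, and 1 marker gene is not reported here. By rule, values in every library were given for members with an unadjusted p under 0.05, for Mtor, Rptor, Rictor and Mlst8 and for Cdk8, and for other pathway genes with an unadjusted p under 0.05, at most the 3 with the smallest p in a comparison. Those of Tsc2, Lamtor5, Tfeb, Ulk1, Deptor, Prr5, Rragd and Sgk1 were added after their values were seen.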

Additional observations from a re-analysis of the deposited data

Results flagged for a closer look

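Within groups of 4 lines, 1 line stood far from the other 3 for 11 of the 152 combinations of member and group tested (7.24%), by the gap to the nearest line as a share of the whole range, and chance flags about 1 in 20 such groups (5%). With DMSO in Cdk8fl/fl, line 1 stood apart for Eif4ebp2 (1237 CPM, nearest line 615 CPM), Depdc5 (74.3 CPM, nearest 53.1 CPM) and, as the lowest, Tbc1d7 (14.3 CPM, nearest 29.6 CPM). With Senexin B in Cdk8fl/fl, line 1 was high for Flcn (69.6 CPM, nearest 40.2 CPM). With DMSO in Cdk8Δ/Δ, line 4 was high for Eif4g1 (922 CPM, nearest 627 CPM) and line 1 for Ulk2 (63.8 CPM, nearest 43.0 CPM). With Senexin B in Cdk8Δ/Δ, line 1 was high for Akt1s1 (47.2 CPM, nearest 36.6 CPM) and Nprl3 (49.5 CPM, nearest 30.0 CPM) and low for Depdc5 (46.6 CPM, nearest 66.3 CPM), line 2 was low for Rps6kb2 (25.2 CPM, nearest 36.2 CPM) and line 4 was high for Mlst8 (25.0 CPM, nearest 20.9 CPM). Line 1 of either genotype accounted for 8 of the 11, and the cause was not tested.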

How the results depend on the processing

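Among members with an unadjusted p under 0.05 in a comparison, none changed direction under an alternative, and of 3698 fits of single members 2 passed both limits, both for Sesn3 with Senexin B in Cdk8fl/fl under the replicate block, without line 1 or without line 4. With libraries or lines left out, the number of members past both limits was 0 to 1 in that comparison and 0 in the others. Numbers of members with an unadjusted p under 0.05 moved more. In the genotype comparison in DMSO the 1 member became 3 by DESeq2, 2 with RLE size factors, 2 without a filter, 2 with at least 10 counts in every library, 2 with all 16 libraries in one fit, 0 with the replicate block, and 0 to 6 with a library left out. With Senexin B in both genotypes the 0 became 0 to 1 with a library left out. With Senexin B in Cdk8fl/fl the 1 became 2 in one fit of all 16 libraries, 2 with the replicate block and 0 to 10 with a library or a line left out. In Cdk8Δ/Δ the 1 became 0 in one fit of all 16, 5 with the block and 0 to 6 with a library or a line left out. For the interaction the 0 became 2 with the block and 0 to 1 with a library left out. The 7 over 8 lines became 2 to 6 with a line left out. The fit over 8 lines and the blocked fits without a line were chosen after seeing the data. The cause of these moves was not tested. With the block and all 4 lines, 0 members and 0 other pathway genes passed both limits in any comparison. In the blocked Cdk8fl/fl fit without line 1, 6 other pathway genes passed both limits. By the levels of all genes, replicate numbers did not pair lines across genotypes, and the block gave 0 members past both limits in both genotype comparisons. The changes with Senexin B followed the number in many members and not in others, which was not tested as a set. For Mtor the log2 ratios of lines 1 to 4 were -0.95, 0.16, 0.52 and 1.20 in Cdk8fl/fl. In Cdk8Δ/Δ they were -1.06, -0.38, 0.23 and 0.54. For Tsc1 they were -0.70, 0.30, 0.47 and 0.56 against -0.45, 0.13, 0.53 and 0.23. For Rraga they were 0.43, -0.43, -0.54 and -0.92 against 0.21, -0.12, -0.68 and -0.44. For Tsc2 the log2 ratios of lines 1 to 4 were -0.66, -0.63, -0.29 and -0.22 in Cdk8fl/fl and -0.48, -0.40, -0.16 and -0.01 in Cdk8Δ/Δ. For Lamtor1 they were 0.19, 0.90, -0.10 and 0.06 against -0.16, -0.22, 0.15 and -0.10. Whether lines of the same number shared a batch was not tested, so the 8 changes may not be independent. The tested members had at least 23 counts in every library, and Prr5l and Fnip2, with 0 to 29 counts, could not be compared at this depth.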
